A study of Mus musculus with 4 samples.

Results

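The genes described here are 10 regulators of mTORC1, most of them brakes that lower its activity under stress: the sestrins Sesn1, Sesn2 and Sesn3, the paralogues Ddit4 and Ddit4l, Deptor, the TSC genes Tsc1 and Tsc2, and, as the target, Mtor and Rptor. They were picked by symbol, and all 10 were found among the 22180 genes that had a probe set with a single gene symbol. They were read in embryoid bodies, the aggregates in which embryonic stem cells start to differentiate, grown from the mouse line R1 for 18 h after LIF withdrawal with 1.88 µM GSK-J4, with 1.88 µM GSK-J5, with DMSO or in EB medium alone. Feeders had been depleted first, RNA came from trypsin-dissociated bodies, and each treatment has 1 array, 4 in all. GSK-J4 is an ester that cells convert to GSK-J1, which blocks the KDM6 enzymes that demethylate histone H3; GSK-J5 carries a regioisomer with little activity on these enzymes. The study asked whether blocking KDM6 sets off a DNA damage response during differentiation, and several mTORC1 brakes are textbook targets of p53.

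mTORC1 is a kinase complex on the lysosome that drives protein synthesis and growth when amino acids and growth factors are present. Growth factor signals reach it by relieving the block that the TSC1-TSC2 complex places on the GTPase RHEB, and DDIT4 (REDD1) restores that block. Sestrins act on the amino acid branch: SESN2 binds GATOR2 when leucine is scarce, so that GATOR1 can switch the Rag GTPases off. DEPTOR binds mTOR itself, and RPTOR (raptor) brings the substrates. Sesn1 and Tsc2 are known as p53-driven, Sesn3 as FOXO-driven, and Sesn2 and Ddit4 as genes that answer both to p53 and to ATF4, the transcription factor of the amino acid and integrated stress response.

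In GSK-J4 the transcripts of Ddit4, Ddit4l and Sesn2 stood above those of all 3 controls, by 3.58-fold, 1.96-fold and 1.64-fold over the nearest control. Sesn1, the sestrin to which p53 was assigned here as driver, was not higher, and neither was Sesn3. Tsc2, Tsc1, Mtor, Deptor and Rptor lay within 0.18 of the nearest control on the log2 scale. Of the higher genes, Ddit4 and Sesn2 are known to answer to ATF4 as well as p53, and no driver was assigned here to Ddit4l. The drivers were assigned with earlier results of these data known, and their part in the differences was not tested. None of the differences between arrays has a replicate check, so no p-value is given.

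The starts of the 3 genes that were higher are shown, with those of Sesn1, the sestrin that was not, for comparison. Each line is the 250 bases before a RefSeq transcription start in GRCm38.p6, on the strand of the gene. Capitals mark the CCAAT box (CCAAT, or ATTGG on the opposite strand) and the hypoxia response core (ACGTG). They also mark the p53 decamer, a half-site named without letters, since it is degenerate.
Ddit4 (chr10:59951771-59952020, minus strand): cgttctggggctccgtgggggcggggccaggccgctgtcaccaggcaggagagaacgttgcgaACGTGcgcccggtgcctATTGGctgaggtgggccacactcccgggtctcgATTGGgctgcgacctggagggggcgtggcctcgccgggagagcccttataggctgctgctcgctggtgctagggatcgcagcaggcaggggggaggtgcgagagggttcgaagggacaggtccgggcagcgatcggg
Ddit4l (chr3:137623422-137623671, plus strand): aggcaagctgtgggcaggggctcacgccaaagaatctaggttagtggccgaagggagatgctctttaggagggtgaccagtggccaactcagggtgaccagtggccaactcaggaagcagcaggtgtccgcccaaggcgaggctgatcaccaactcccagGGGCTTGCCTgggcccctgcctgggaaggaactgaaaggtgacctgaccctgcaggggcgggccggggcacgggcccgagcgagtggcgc
Sesn2 (chr4:132510457-132510706, minus strand): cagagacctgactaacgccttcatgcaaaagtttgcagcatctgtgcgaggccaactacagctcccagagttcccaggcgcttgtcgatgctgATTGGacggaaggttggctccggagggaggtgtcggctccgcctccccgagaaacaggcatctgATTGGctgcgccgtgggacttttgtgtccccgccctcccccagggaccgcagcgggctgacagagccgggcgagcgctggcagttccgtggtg
Sesn1, upstream start (chr10:41810324-41810573, plus strand): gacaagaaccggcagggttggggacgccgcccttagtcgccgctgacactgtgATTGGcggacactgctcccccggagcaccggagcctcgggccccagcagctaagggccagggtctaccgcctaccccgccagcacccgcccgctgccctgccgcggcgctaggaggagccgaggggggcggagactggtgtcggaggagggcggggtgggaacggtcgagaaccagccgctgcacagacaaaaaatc
Sesn1, downstream start (chr10:41887189-41887438, plus strand): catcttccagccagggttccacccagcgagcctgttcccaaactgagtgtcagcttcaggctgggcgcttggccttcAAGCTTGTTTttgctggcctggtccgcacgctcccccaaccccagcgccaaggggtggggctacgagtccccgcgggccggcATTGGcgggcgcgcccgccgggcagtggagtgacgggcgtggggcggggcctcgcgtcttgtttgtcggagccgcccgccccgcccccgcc

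RefSeq windows were found for 9 of the 10 genes, with 10 windows because Sesn1 has a pair of starts; Deptor is the gene without one. Both strands were searched, and no match overlapped a match to another motif. The CARE element to which ATF4 binds with its partners (TGATGNAA) matched in none of the 10 windows, against 3.45% of the 32851 windows of all genes. A p53 decamer, which is a half-site and not a full p53 element, was found before Ddit4l and before the downstream start of Sesn1. Of all windows 7.13% hold one. ACGTG was found before Ddit4 and before Rptor, against 16.6% of all windows, and CCAAT before Ddit4, Sesn2, Sesn3, Mtor and both starts of Sesn1, against 33.8%. The FOXO element TGTTTAC (3.17% of all windows) and the cyclic AMP element TGACGTCA (1.55%) matched before none of the 9. A match is a string of letters and not a bound site, and these windows leave out introns and distant enhancers.

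Ddit4, which encodes the TSC activator REDD1, read 11.80 in GSK-J4, against 9.93 in GSK-J5, 9.74 in DMSO and 9.96 in EB medium (log2 RMA values, here and for every level below). The GSK-J4 array stood far above a control range of 0.22. The differences were 1.87 to GSK-J5, 2.06 to DMSO and 1.84 to EB medium, or 3.66-fold, 4.17-fold and 3.58-fold. The distance to the nearest control, called the margin, was 1.84, and 7 of the 13308 genes that passed the filter on dim genes had a larger one. In bulk RNA a change in the make-up of the bodies and a change per cell cannot be told apart.

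Ddit4l, which encodes REDD2, a paralogue of REDD1 that also restrains mTORC1, read 8.58 in GSK-J4, against 7.46 in GSK-J5, 7.39 in DMSO and 7.61 in EB medium. All 3 controls lay above the filter level of 6.585. The margin was 0.97, a 1.96-fold difference from EB medium, the highest control. Against GSK-J5 the difference was 1.12 and against DMSO 1.19, and 80 genes had a larger margin.

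Sesn2, the leucine-sensing sestrin, read 12.03 in GSK-J4, against 11.32 in GSK-J5, 11.07 in DMSO and 11.22 in EB medium. It was higher in GSK-J4 than in every control, by less than Ddit4. The differences were 0.71 to GSK-J5, 0.96 to DMSO and 0.81 to EB medium, which are 1.64-fold, 1.95-fold and 1.75-fold. Sesn2 had the widest control range of the 10 genes (0.25), and 180 genes had a larger margin.

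**Figure D1:**
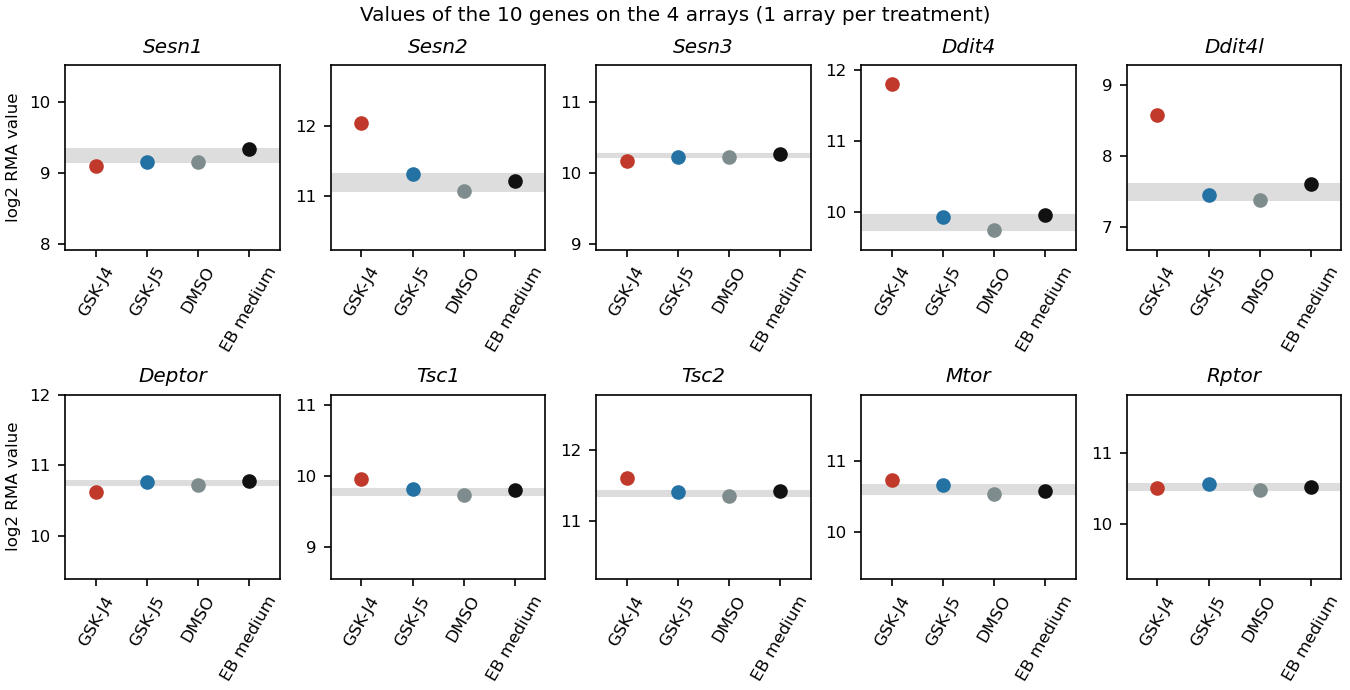
Log2 RMA value (vertical axis) of each of the 10 genes on the GSK-J4, GSK-J5, DMSO and EB medium arrays (horizontal axis), 1 point per array; the grey band spans the 3 controls and every panel covers the same height. Ddit4, Ddit4l and Sesn2 stand clear of their bands in GSK-J4, while Sesn1 (9.10) lies just under its band (9.16 to 9.34).

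The other sestrins did not share the difference of Sesn2. Sesn1 read 9.10 in GSK-J4, against 9.16 in GSK-J5, 9.16 in DMSO and 9.34 in EB medium. Its GSK-J4 value was the lowest of the 4, 0.06 below GSK-J5 and DMSO and 0.24 below EB medium. Sesn3, which encodes the sestrin known to be raised by FOXO factors, read 10.17 in GSK-J4, against 10.22 in GSK-J5, 10.22 in DMSO and 10.27 in EB medium, a margin of -0.05. The Sesn1 probe set is one for the whole gene, so transcripts from its separate starts cannot be told apart.

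Of the TSC complex, which turns RHEB off, Tsc2 read 11.61 in GSK-J4, against 11.41 in GSK-J5, 11.36 in DMSO and 11.43 in EB medium. Its margin of 0.18 is a 1.13-fold difference, larger than the control range of 0.07 but below the 1.5-fold used to count genes. Tsc1 read 9.97 in GSK-J4, against 9.82 in GSK-J5, 9.74 in DMSO and 9.81 in EB medium. The margin of Tsc1 was 0.15, and margins at least that high were found in 18.8% of all genes, against 16.0% for Tsc2.

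The kinase gene Mtor read 10.74 in GSK-J4, against 10.66 in GSK-J5, 10.54 in DMSO and 10.58 in EB medium. Its margin of 0.08 was smaller than the range of its controls (0.12). Rptor, the substrate-binding scaffold, read 10.50 in GSK-J4, against 10.56 in GSK-J5, 10.48 in DMSO and 10.52 in EB medium, inside the range of the controls. Deptor, the inhibitor bound to mTOR, read 10.62 in GSK-J4, against 10.76 in GSK-J5, 10.72 in DMSO and 10.78 in EB medium. A dimmer Deptor probe set read 9.84 in GSK-J4, against 9.79 to 9.86 among the controls, and so did not share the small difference.

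**Figure D2:**
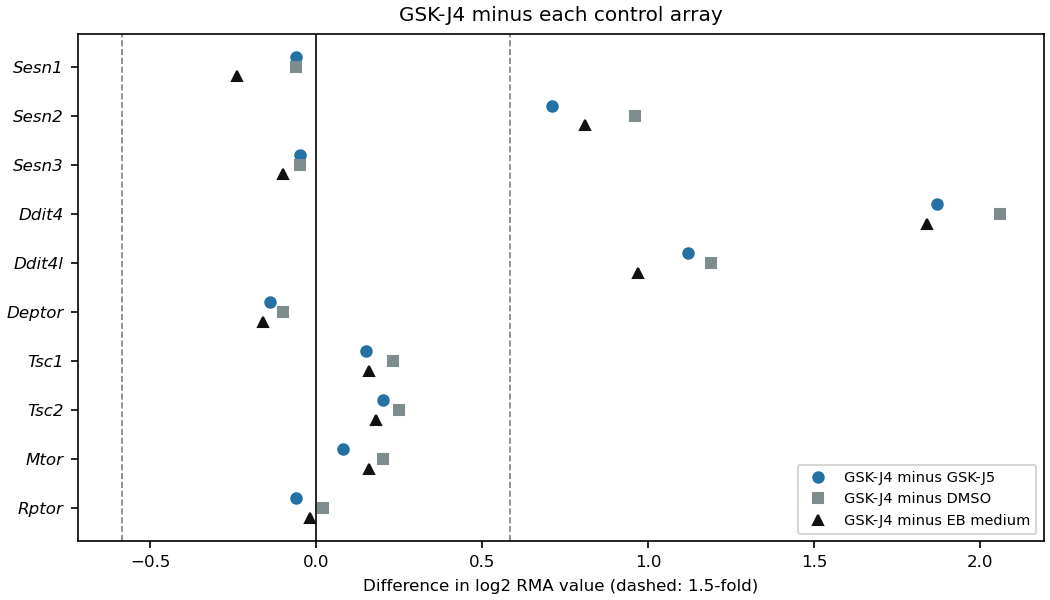
GSK-J4 minus GSK-J5, minus DMSO and minus EB medium (horizontal axis, log2) for each gene (rows), with dashed lines at 1.5-fold. Ddit4, Ddit4l and Sesn2 lie beyond the line in all 3 differences, and the other 7 genes lie between the lines in all of them.

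Counted by the rule of size, 3 of the 10 genes were at least 1.5-fold (0.585) above all 3 controls, where 2.21% of the 13308 genes were. None was 1.5-fold below all controls, where 0.842% of genes were. By any amount, 6 of the 10 lay above all controls (38.0% of genes) and 3 below (35.5%), so a place just outside the controls, as Tsc1, Tsc2, Mtor, Sesn1, Sesn3 and Deptor had, was common among all genes. Against GSK-J5 alone, the matched isomer, the same 3 genes were higher by 1.5-fold (3.28% of genes) and 0 lower (1.39%). Over the 10 genes GSK-J4 minus GSK-J5 had a median of 0.115, and over all genes 0.00. With a control in the place of GSK-J4, 0 of the 10 were counted for GSK-J5 (0.0% of genes), for DMSO (0.0225%) or for EB medium (0.00751%).

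**Figure D3:**
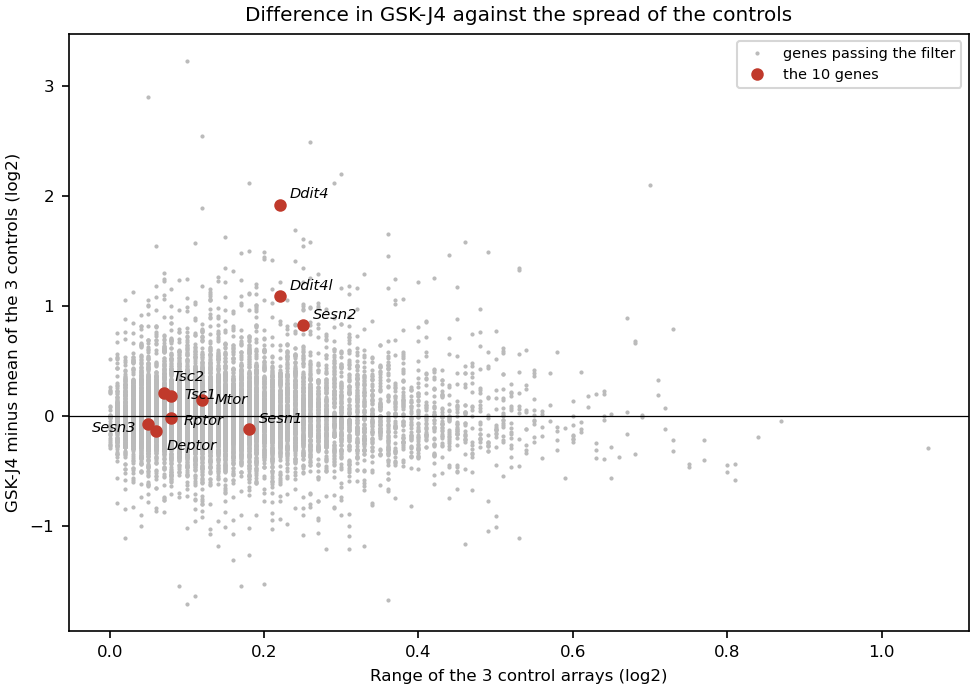
GSK-J4 minus the mean of the 3 controls (vertical axis, log2) against the range of the 3 controls (horizontal axis, log2) for the 13308 genes that passed the filter (grey) and the 10 mTORC1 regulators (red). Ddit4 (1.92), Ddit4l (1.09) and Sesn2 (0.83) lie above most of the cloud, with other genes above them, and the other 7 lie in its centre.

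GSK-J5 itself was close to the other controls for these genes. The largest GSK-J5 minus DMSO differences were 0.25 for Sesn2, 0.19 for Ddit4 and 0.12 for Mtor. For Ddit4 the GSK-J5 array (9.93) still lay below EB medium (9.96), and for Sesn2 it was the highest control. DMSO minus EB medium was -0.22 for Ddit4, -0.22 for Ddit4l, -0.18 for Sesn1 and -0.15 for Sesn2, and DMSO read lowest of the controls, or level with GSK-J5, for all 10 genes. GSK-J4 and GSK-J5, at the same dose and time, thus differed by 1.87 for Ddit4, 1.12 for Ddit4l and 0.71 for Sesn2, and by at most 0.20 for the other 7; with 1 array each, these differences have no interval.

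Other genes known to be p53-driven, several of which restrain AKT or the cell cycle, were higher in GSK-J4 although Sesn1 was not. Of the 11 measured, all above the filter level, 6 were 1.5-fold higher and 0 lower, beside 2.21% and 0.842% of all genes. GSK-J4 minus GSK-J5 had a median of 0.70, beside 0.00 for all genes. The kinase gene Plk2 read 10.40 in GSK-J4, against 8.44 to 8.56 among the controls. Phlda3, which encodes a competitor of AKT for membrane lipids, read 11.50 in GSK-J4, against 10.05 to 10.30. Trp53inp1, a p53-induced regulator of autophagy and cell death, read 12.45 in GSK-J4, against 11.18 to 11.25. Also counted were Cdkn1a, Mdm2 and Ccng1, with margins of 1.03, 0.78 and 0.66. The list was not uniform: Igfbp3, Tigar, Ei24 and Prkab1, an AMPK subunit gene, had margins of 0.00, -0.01, 0.16 and 0.09, like Sesn1 and Tsc2. Zmat3, at 0.55, was just short of the count. All genes given here by margin are named after their values were seen.

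Other ATF4-driven genes were higher by a larger median, 1.09 over 12 measured genes against GSK-J5. Of the 11 that passed the filter, 7 were 1.5-fold higher and 0 lower, beside 2.21% and 0.842% of all genes. Nupr1, a stress-induced chromatin protein gene, read 10.03 in GSK-J4, against 7.41 to 7.53 among the controls. Trib3, which encodes a pseudokinase that binds AKT, read 10.72 in GSK-J4, against 8.40 to 8.70, and Ddit3 (CHOP) read 9.96, against 7.50 to 8.20. This list was not uniform either. Eif4ebp1, the translational brake that mTORC1 phosphorylates and ATF4 induces, read 13.42, against 13.10 to 13.15, a margin of 0.27 that was not counted. Asns, Slc7a5 and Slc3a2, named after their values were seen, were not counted either, with margins of 0.44, 0.23 and 0.20. The GSK-J5 minus DMSO median was 0.11 for the ATF4-driven genes and 0.02 for the p53-driven genes, with Ddit3 at 0.70. Both lists had been chosen with results of these arrays known, and the difference between their medians was not tested.

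**Figure D4:**
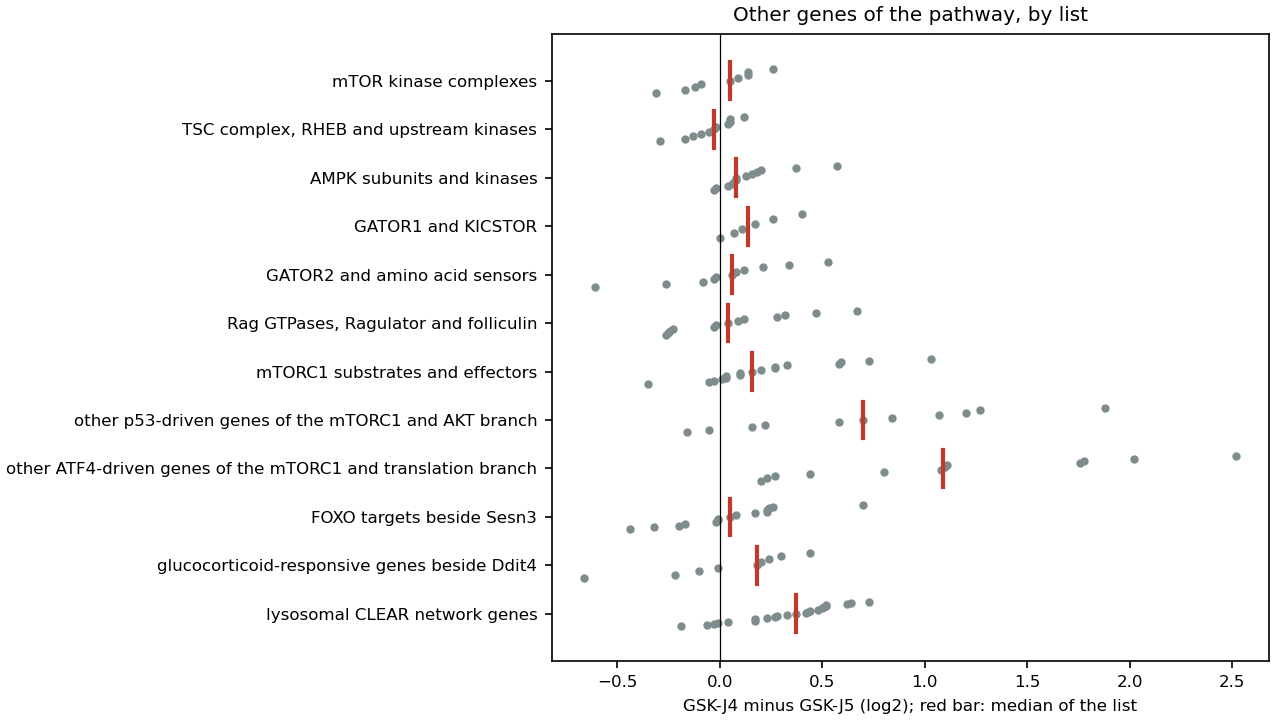
GSK-J4 minus GSK-J5 (horizontal axis, log2) for each measured gene (grey points) of 12 lists (rows), without the 10 genes themselves; the red bar is the median. The ATF4-driven (1.09) and p53-driven (0.70) lists lie farthest to the right, lysosomal genes follow (0.37), and the lists of the mTOR, TSC, GATOR2 and Rag complexes are centred within 0.06 of zero.

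In the rest of the machinery between the brakes and the kinase, list medians lay between -0.03 and 0.14, though single genes differed by more. Over all genes 2.21% were counted as higher and 0.842% as lower, so a count of 0 says little for lists this short. No gene was counted in either direction among 9 further mTOR complex genes (median 0.05), 11 of the TSC, RHEB and PI3K branch (-0.03), 6 of GATOR1 and its lysosomal anchor KICSTOR (0.14), 11 of GATOR2 and the amino acid sensors (0.06) and 13 of the Rag, Ragulator and folliculin group (0.04), of which 12 passed the filter. The arginine sensor gene Castor1 came nearest to being counted as lower, at 11.05 in GSK-J4, against 11.63 to 11.66 among the controls, a margin of -0.58. Lars, the leucyl-tRNA synthetase gene, read 12.82, against 12.29 to 12.32, and Slc38a9, the lysosomal arginine sensor gene, read 10.06, against 9.39 to 9.56, margins of 0.50 each. Of the 4 Rag GTPase genes Rragc had a margin of 0.29, while Rraga, Rragd and Rragb lay below all controls, at -0.23, -0.21 and -0.03. Mlst8 (GSK-J4 minus GSK-J5 0.26) and Prr5 (-0.31) were the farthest of the mTOR complex genes, Pik3r1 (-0.29) and Pik3r2 (-0.17) of the TSC branch, and Itfg2 (0.40) and Kptn (0.26) of GATOR1 and KICSTOR.

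AMPK is the energy sensor that phosphorylates TSC2 and RPTOR and to which sestrins have been linked. Of 13 genes of its subunits and kinases 0 were counted, beside 2.21% of all genes as higher and 0.842% as lower. By any amount 9 of the 13 lay above all controls and 0 below, beside 38.0% and 35.5% of all genes, with a median of 0.08. The AMPK regulatory subunit gene Prkab2 read 9.49 in GSK-J4, against 8.92 to 9.02 among the controls. The catalytic subunit gene Prkaa2 read 10.16, against 9.73 to 9.93. Neither reached 1.5-fold.

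Downstream of the kinase, 2 of 17 substrate and effector genes were counted as higher and 0 as lower, beside 2.21% and 0.842% of all genes. The median of this list was 0.16. Lpin1, a phosphatidate phosphatase that mTORC1 keeps out of the nucleus, read 9.98 in GSK-J4, against 8.95 to 9.13 among the controls. Grb10, an adaptor that mTORC1 stabilises and that damps insulin signalling, read 11.86, against 10.87 to 11.13. Lysosomal genes of the CLEAR network, which TFEB and TFE3 induce when mTORC1 releases them, had a median of 0.37 over 23 measured genes. By any amount 18 of the 23 lay above all controls and 2 below, beside 38.0% and 35.5% of all genes. Of the 22 that passed the filter 3 were counted as higher and 0 as lower, beside 2.21% and 0.842% of all genes. These 3 were Naglu (7.86 in GSK-J4, against 6.94 to 7.18), Hexa (11.38, against 10.57 to 10.76) and Gaa (10.35, against 9.58 to 9.75). Transcript levels do not show mTORC1 activity, which was not measured here.

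The genes closest in pattern to the 3 counted genes were found by the distance between values centred on the control mean, over 4 arrays. Nearest to Sesn2 were Grb10 (distance 0.03), Herpud1, which serves disposal of misfolded proteins of the endoplasmic reticulum (0.04), and Fyn, a SRC family kinase gene (0.05). Nearest to Ddit4 were Plk2 (0.09), Aldh1l2, a mitochondrial folate enzyme gene (0.23), and Inhbe, which encodes an activin subunit (0.23). Nearest to Ddit4l were Efna3, an ephrin ligand gene (0.03), Mvb12b, an ESCRT-I subunit gene (0.07), and Artn, which encodes the growth factor artemin (0.08). Inhbe and Artn had controls under the filter level (6.10 to 6.28 and 6.36 to 6.53) and Aldh1l2 in part (6.54 to 6.78), so their distances are less exact.

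Of 14 stem cell and epiblast markers 13 passed the filter, as 13308 of all 22180 genes did. Among the brighter were Sox2 (13.02 in GSK-J4, against 12.93 to 13.02) and Nanog (13.05, against 13.11 to 13.20). Pou5f1 (9.69, against 9.74 to 9.81) and Esrrb (8.97, against 8.73 to 8.86) were dimmer, and Dppa5a (6.29, against 6.31 to 6.66) did not pass. Within this list Fgf5 (7.23 in GSK-J4, against 8.66 to 8.83) and Dnmt3b (11.30, against 12.07 to 12.18) were counted as lower and 0 as higher. Over all genes 0.842% were counted as lower and 2.21% as higher. Of 13 feeder fibroblast markers 6 passed the filter. Among the 13, 0 lay above all controls and 8 below, beside 38.0% and 35.5% of all genes. Their summed linear value was 1322 in GSK-J4, against 1521 to 1553 among the controls. Dcn (4.78 in GSK-J4, against 5.29 to 5.59) and Thbs1 (7.06, against 7.46 to 7.54) were the farthest. Of 10 blood and endothelial markers 4 passed the filter. Among the 10, 4 lay above all controls, 2 below and 4 inside their range, where 38.0% of all genes lay above and 35.5% below. Over this list GSK-J4 minus GSK-J5 had a median of 0.02. Laptm5 (8.45 in GSK-J4, against 6.92 to 7.16) was counted as higher, though not with the filter at the 60th percentile. The summed values of this list were 3405 in GSK-J4, against 2544 to 2632. Most of each sum came from a single gene, Pecam1, the brightest of the list, at 11.17 in GSK-J4, against 10.72 to 10.80. Cdh5 and Tal1 were the genes below all controls, and Ptprc, Kdr, Gata1 and Emcn those inside their range. The endothelial genes Cdh5, Kdr and Emcn did not pass the filter, so the sums do not show more blood or endothelial RNA. The part of these cell type markers in the results above was not tested.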

How the data were processed

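The deposited log2 values came from the authors' RMA run (Affymetrix Expression Console, version 1.2.1.20, as the submitters' processing notes list). This method subtracts background, equalises the distributions of the arrays and summarises probes per probe set. The log base was inferred from the range, 2.20 to 14.48, and folds rest on it. No scanner files were used, so detection is unknown, and precision is limited by the number of arrays. Values have 2 decimals.

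Of 41345 probe sets, 23521 had a single symbol in the platform annotation, 1814 had several and 16010 were not listed. The 10 genes had 11 probe sets, and their 10 gene identifiers matched the RefSeq table of GRCm38.p6. The brightest probe set stood for a gene. A gene was counted if its mean reached the 40th percentile (6.585), as 13308 genes and all 10 members did, and if it lay 1.5-fold above the highest or below the lowest control. Over genes that passed the filter the median difference of GSK-J4 from each control was between 0.00 and 0.01.

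The 10 members, the 15 lists and the drivers were chosen with earlier results of these data known. Lists are counted over measured genes without the members. Named from each list were up to 3 counted genes per direction, or the 2 farthest from GSK-J5 where none was counted. For each counted member the 3 genes of nearest pattern were named, leaving out transcripts without a proper name. Any other gene, Eif4ebp1, Sox2 and Nanog included, was chosen after its values were seen. The counting rule was tried on simulated arrays with known changes. Noise there had the same size for all genes, so differences in spread between genes were not covered. Promoter sequences are RefSeq's. Python 3.11.15, numpy 2.4.6, pandas 2.3.3, statsmodels 0.14.6 and matplotlib 3.10.9 were used. Alternatives were other filters, 3 rescalings (median centring, quantile, loess with span 0.3), the median over probe sets, a higher (2) and a lower fold, and leaving out each control.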

Additional observations from a re-analysis of the deposited data

How the results depend on the processing

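Ddit4, Ddit4l and Sesn2 were counted as higher, and 0 of the 10 genes as lower, under all 3 rescalings, the median over probe sets, no filter, the lower fold and each control left out. At 2-fold 1 gene was counted, Ddit4. With the filter at the 60th percentile 2 were counted as higher, Ddit4 and Sesn2, because Ddit4l, the dimmest of the 3, did not pass. The margin of Ddit4 ranged over 1.83 to 1.87, that of Ddit4l over 0.92 to 1.12 and that of Sesn2 over 0.71 to 0.81. Sesn1 stayed between -0.14 and -0.05, Sesn3 between -0.09 and -0.04, Tsc1 between 0.08 and 0.16, Tsc2 between 0.17 and 0.20, Mtor between 0.06 and 0.16, Deptor between -0.14 and -0.04 and Rptor between -0.02 and 0.00. Of the 90 list medians recomputed, 3 changed sign: mTOR complex genes under quantile normalization (-0.04) and loess (-0.0069), and blood and endothelial markers under quantile normalization (-0.0013). After median centring Castor1 was counted as lower. With the filter at the 60th percentile 0 blood and endothelial markers were counted as higher, and there and under quantile normalization 2 lysosomal genes in place of 3. The causes were not tested. No paired analysis was possible because each treatment has a single array. Signal over background could not be examined in a table without detection calls, and dim controls limit the size of differences.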

Other observations

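Ddit4 is also known as a target of the hypoxia factor HIF1 and of the glucocorticoid receptor, and Sesn3 as a FOXO target. Of 6 HIF targets chosen after results were known, 1 was counted as higher in GSK-J4, Vegfa, which is also ATF4-driven (10.22 in GSK-J4, against 8.84 to 9.11 among the controls). The prolyl hydroxylase gene Egln3 (9.34, against 10.23 to 10.44) and the mitophagy receptor gene Bnip3 (8.70, against 9.54 to 9.61) were counted as lower. Over all genes 2.21% were counted as higher and 0.842% as lower. By any amount 5 of the 6 lay below all controls, as 35.5% of all genes did, among them Pdk1 (margin -0.44), Slc2a1 (-0.07) and Ndrg1 (-0.03). The part of HIF in the Ddit4 difference was not tested. Among 9 glucocorticoid-responsive genes 0 were counted as higher and 1 as lower, the kinase gene Sgk1 (10.62, against 11.28 to 11.36), with a list median of 0.18. By any amount 5 of the 9 lay above all controls and 4 below, beside 38.0% and 35.5% of all genes.

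Among 15 FOXO-related genes the median was 0.05, and 1 was counted as higher, where 2.21% of all genes were. The counted member was Foxo3 itself (9.95 in GSK-J4, against 9.03 to 9.25 among the controls). Its paralogues, named after their values were seen, did not share this: Foxo1 read 10.54, against 10.73 to 10.79, and Foxo4 9.54, against 9.98 to 10.05. Sesn3 lay below all controls by 0.05.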
